A study of Homo sapiens with 4 samples.

Results

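The genes examined here, 8 in number, were grouped as regulators of splicing and transcription in epithelial cells. They were searched for binding of SNAIL1, a zinc-finger repressor that drives the epithelial-mesenchymal transition. They are the splicing regulators ESRP1 and ESRP2 and the transcription factors GRHL2, OVOL1, OVOL2, ELF3, EHF and KLF5. Their peaks are all lines of the 4 deposited peak lists whose summit lies within 10 kb of the hg19 gene body. This gave 15 lines of 2177 in all. The libraries came from pN1-LS174T Snail1-HA cells, a derivative of the established human colorectal adenocarcinoma line LS174T in which doxycycline switches on murine SNAIL1 with a hemagglutinin (HA) tag. For the 2 induced libraries, the cells received doxycycline at 0.1 mg/ml and were fixed after 6 h. For the 2 uninduced libraries, the same cells were left without it. Every library was an anti-HA chromatin immunoprecipitation (ChIP-seq). No source used here says whether the line is 1 clone or a pool, and the factor is an overexpressed mouse protein in human cells.

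ESRP1 and ESRP2 are RNA-binding proteins that impose the epithelial pattern of alternative splicing on transcripts such as those of FGFR2 and CD44, and their loss accompanies the mesenchymal switch. GRHL2 is a grainyhead-family factor that activates genes of epithelial junctions. OVOL1 and OVOL2 are zinc-finger repressors known to restrain ZEB1 and other EMT inducers. ELF3 and EHF are ETS-family factors largely restricted to epithelia, and KLF5 is a Krüppel-like factor of proliferating intestinal crypt cells. SNAIL1 is known to bind the E-box CAGGTG, which reads CACCTG on the other strand, and to recruit corepressors to promoters.

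Induced cells carried listed peaks at 6 of the 8 genes, and uninduced cells carried them at none. There were 6 peaks at the genes in induced 1 and 9 in induced 2. The induced mean was 7.50 ± 2.12 (SD, n = 2), against 0 in each uninduced library. The uninduced lists are short, with 5 and 11 peaks over the whole genome against 823 and 1338 in the induced lists, and the windows of the 8 genes held 0.729% and 0.673% of the induced peaks. With lists of that length, the lack of uninduced peaks shows nothing particular to these genes. A two-sided exact permutation test over the 4 libraries gave p = 0.333, which is the smallest this design allows, so it adds nothing to the counts. ESRP1, ESRP2, OVOL1, OVOL2 and ELF3 had a peak that overlapped between the induced libraries. GRHL2 had peaks in induced 2 alone, and EHF and KLF5 had none within 10 kb. The submitters call the libraries of a condition biological replicates but do not say that they were separate cultures. Part of the spread between libraries may therefore be technical. The binomial test of reads further below covers counting error only and does not measure that spread.

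**Figure D1:**
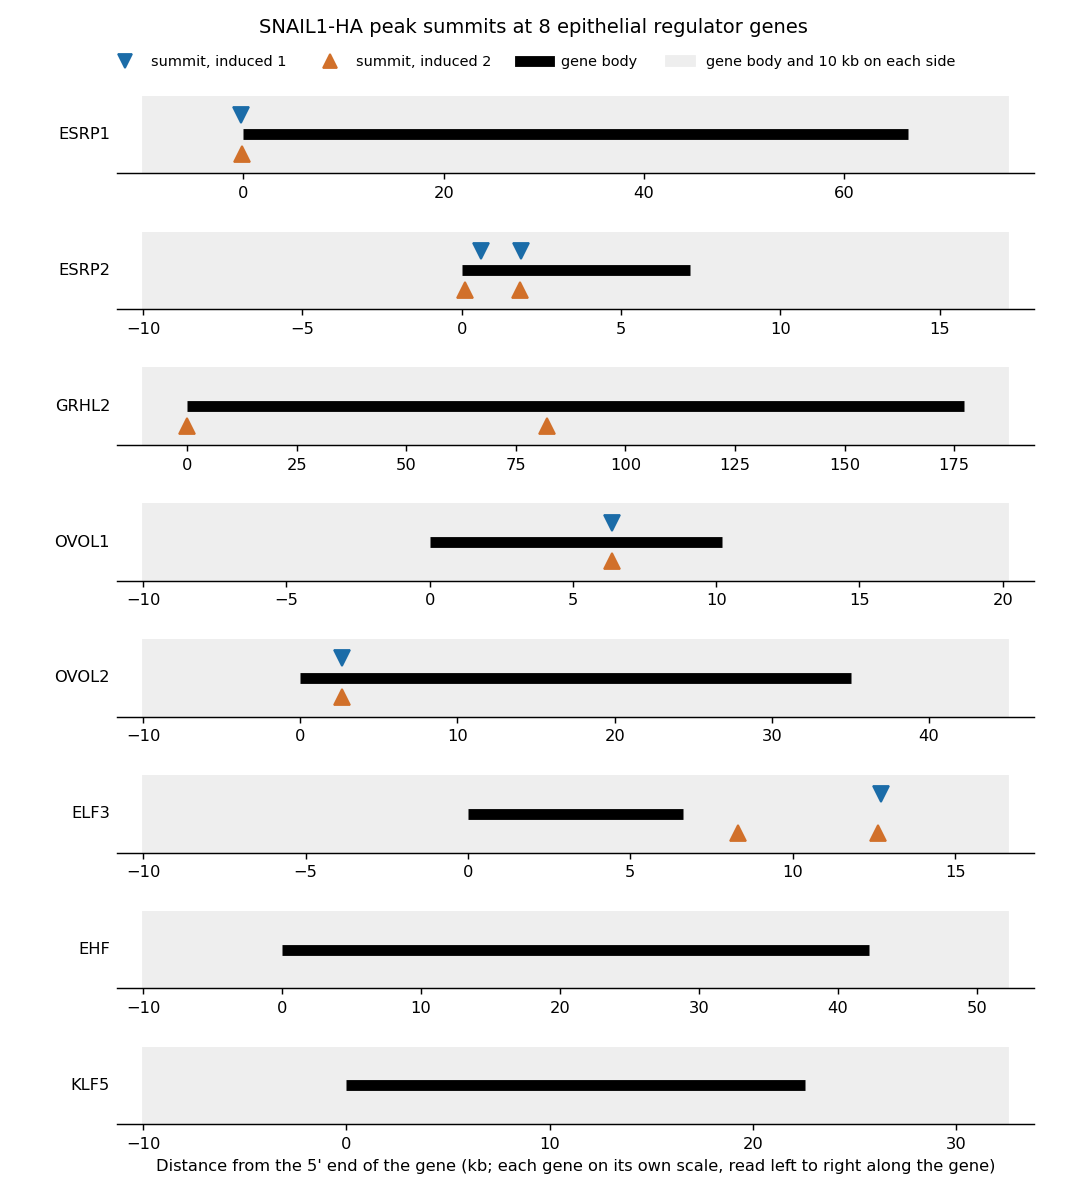
Summits of the listed peaks of induced 1 (downward triangles) and induced 2 (upward triangles) against distance from the 5′ end of each gene in kb, with the gene body as a black bar and 10 kb on each side shaded. Peaks sit at the starts of ESRP1, ESRP2 and GRHL2, inside ESRP2, GRHL2, OVOL1 and OVOL2, and beyond the 3′ end of ELF3, while EHF and KLF5 have none.

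Promoter windows from RefSeq (GRCh38.p14) were examined for only 3 of the 8 genes (ELF3, EHF and KLF5). None of these 3 genes had a peak at its start. Windows of the other genes were not examined. For EHF and KLF5, which have 2 windows each, the one listed first is shown. Each window holds the 250 bases before an annotated start, 5′ to 3′ on the plus strand, with any CAGGTG or CACCTG in capitals. They are chr1:202010337-202010586 for ELF3, chr11:34624007-34624256 for EHF and chr13:73054726-73054975 for KLF5. The peaks are in hg19 and were set only against hg19 gene bodies, not against these windows.
ELF3: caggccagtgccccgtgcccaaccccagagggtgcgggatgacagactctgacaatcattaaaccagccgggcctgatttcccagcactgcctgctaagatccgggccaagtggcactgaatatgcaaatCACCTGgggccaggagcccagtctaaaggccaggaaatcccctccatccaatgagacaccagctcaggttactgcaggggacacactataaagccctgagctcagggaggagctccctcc
EHF: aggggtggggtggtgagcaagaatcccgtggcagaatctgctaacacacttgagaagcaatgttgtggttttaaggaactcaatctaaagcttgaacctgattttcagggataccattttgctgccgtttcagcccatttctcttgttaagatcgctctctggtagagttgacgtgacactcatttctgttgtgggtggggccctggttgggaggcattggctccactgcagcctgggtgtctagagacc
KLF5: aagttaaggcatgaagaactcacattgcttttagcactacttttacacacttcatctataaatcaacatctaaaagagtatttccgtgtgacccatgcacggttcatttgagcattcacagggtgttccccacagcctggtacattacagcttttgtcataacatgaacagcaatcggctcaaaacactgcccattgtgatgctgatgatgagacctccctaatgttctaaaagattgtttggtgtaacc

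The ELF3 window held 1 CACCTG, whose first base lies 120 bases before the start, and no peak was listed at the ELF3 start in any library. None of the 4 windows of EHF and KLF5 held either spelling. The hexamer was thus in 1 of the 5 windows. These windows leave out ESRP1, ESRP2 and GRHL2, the genes with a peak at the start, so the count does not describe those genes. Over all 35116 windows of the same length, 6143 (17.5%) held it. A match describes the letters only, and their absence says only that they are not in this window.

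Pileups of reads at the summits, recovered from the listed values, had a median of 51.0 in induced 1 and 35.0 in induced 2 over all peaks. A pileup counts extended reads, so the sequenced part of a counted read need not reach the summit. The lowest pileup that had been listed was 28 reads in induced 1 and 17 in induced 2. It was 37 in uninduced 1 and 35 in uninduced 2, over only 5 and 11 peaks. Read intervals below are 95% exact Poisson intervals, which cover counting error only. The fold enrichment is the authors' own value for each peak, that is the summit pileup over its local background. It was used to describe peaks and rank them within a list, and a percentile is the share of the list's peaks at or below a given fold. Backgrounds are on the scale of ChIP reads.

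ESRP2 carried the peak with the most reads and the highest fold of the 8 genes, inside the gene, and a weaker peak nearer its start. ESRP2 (chromosome 16, 68263026 to 68270176, minus strand) is only 7.15 kb long. In induced 1 the stronger peak ran from 68268117 to 68268502, with 83 reads at the summit (66.1 to 103) over a background of 8.40 and a fold of 8.61. In induced 2 it ran from 68268144 to 68268573, with 79 reads (62.5 to 98.5) over 7.23 and a fold of 9.72. The libraries placed the summit 27 bp apart, 1.85 and 1.83 kb inside the gene from its 5′ end. This peak ranked 93 of 823 by fold in induced 1 and 91 of 1338 in induced 2, percentiles of 88.8 and 93.3. Neither uninduced library listed it.

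A weaker ESRP2 peak lay near the start in each induced library, but not at the same place. In induced 1 it ran from 68269303 to 68269795, with 36 reads (25.2 to 49.8), a fold of 4.42 and a summit 597 bp inside the gene. In induced 2 it ran from 68269956 to 68270228, with 37 reads (26.1 to 51.0), a fold of 5.03 and a summit 101 bp inside the gene. The peaks were separated by 160 bp and their summits by 496 bp, so by overlap they counted as 2 sites found in 1 library each. In both libraries the start region of ESRP2 therefore held a listed peak, and the 36 and 37 reads are not scaled between the libraries. By fold, these peaks stood at the 25.4 percentile of induced 1 and the 52.2 percentile of induced 2. RefSeq's table (GRCh38.p14) lists MIR6773 and NFATC3 as overlapping the ESRP2 gene body. Whether either overlap reaches the ESRP2 peaks was not determined.

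ESRP1, the paralogue of ESRP2, was bound just upstream of its start in both induced libraries. ESRP1 lies on the plus strand of chromosome 8 from 95653364 to 95719694. The peak of induced 1 had 45 reads (32.8 to 60.2) and a fold of 4.74, with its summit 211 bp before the 5′ end. That of induced 2 had 37 reads (26.1 to 51.0) and a fold of 5.19, with its summit 158 bp before it. The common stretch was 277 bp, from 95653013 to 95653289, and the summits lay 53 bp apart. Both uninduced lists lacked it. In each library the interval of its reads lay below that of the interior ESRP2 site. The backgrounds were 8.40 and 6.33.

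GRHL2 had 2 peaks in induced 2 and none in induced 1. The gene spans 177 kb of chromosome 8 (102504668 to 102681952, plus strand), the longest of the 8. The peak at its start, from 102504534 to 102504829, had its summit 2 bp before the 5′ end, 25 reads (16.2 to 36.9) and a fold of 3.91. RefSeq's table lists the transcript GRHL2-DT as overlapping GRHL2. The second peak, from 102586669 to 102587010, lay 82.2 kb inside the gene with 27 reads (17.8 to 39.3) and a fold of 5.07. In induced 1 the nearest listed peak was 6852 kb from the GRHL2 start.

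The GRHL2 peaks were the lowest in reads of all 15 lines. Scaled by the read ratio of shared peaks between the induced libraries (1.23), they would be 30.7 and 33.2 reads in induced 1, above the lowest pileup listed there (28) but below its median. With the peaks of induced 2 ranked by fold into 4 near-equal groups, 26.5% of the group that holds the GRHL2 start peak recurred in induced 1. The figure was 50.8% for the group that holds the interior peak. Whether depth set their absence from induced 1 was not tested.

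OVOL1 and OVOL2 each had 1 peak, inside the gene and shared by the induced libraries. OVOL1 (chromosome 11, 65554504 to 65564690, plus strand) had its summit 6.37 kb from the 5′ end in induced 1 and 6.36 kb in induced 2, in a gene of 10.2 kb. The induced 1 peak had 49 reads (36.3 to 64.8) and a fold of 4.97. The induced 2 peak had 46 reads (33.7 to 61.4) and a fold of 5.27. The summits lay 16 bp apart, the closest of the 5 shared sites. RefSeq's table lists OVOL1-AS1 among the genes that overlap OVOL1.

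OVOL2 (chromosome 20, 18004796 to 18039832, minus strand) was bound 2.65 kb inside the gene in induced 1 and 2.67 kb in induced 2. The induced 1 peak had 53 reads (39.7 to 69.3) over a background of 9.80, and the induced 2 peak had 51 reads (38.0 to 67.1) over 6.78. The fold was 4.86 in induced 1 and 6.68 in induced 2. Neither the reads nor the backgrounds are scaled between the libraries, so the nearly equal read numbers do not mean equal binding. By fold, OVOL2 stood at the 37.3 percentile of induced 1 and the 79.3 percentile of induced 2. Neither OVOL gene had a peak within 1 kb of its start in any library.

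ELF3 was bound beyond its 3′ end and not at its start. ELF3 occupies 6.63 kb of chromosome 1 (201979690 to 201986315, plus strand). The shared peak lay 6.08 kb past the 3′ end in induced 1, with 63 reads (48.4 to 80.6) and a fold of 5.11. In induced 2 it lay 6.00 kb past it, with 39 reads (27.7 to 53.3) and a fold of 4.86. The summits, 86 bp apart, were the furthest from each other of the 5 shared sites. Induced 2 alone had a further peak 1.69 kb past the 3′ end, from 201987872 to 201988195, with 31 reads (21.1 to 44.0) and a fold of 4.37. The next protein-coding gene on that side in RefSeq's table is GPR37L1.

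EHF (chromosome 11, 34642588 to 34684834) and KLF5 (chromosome 13, 73629114 to 73651680) had no peak in their windows. The summit nearest to the EHF start was 20.3 kb away in induced 2 and 357 kb away in induced 1. For KLF5 the nearest was 35.4 kb from the start in both induced libraries. An absent peak means that none was listed, not that reads were absent.

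The limit of 10 kb left out a shared peak near KLF5. The furthest peak inside the limit was that of ELF3, 6.08 kb past the gene. Just outside lay a peak 12.4 kb beyond the 3′ end of ESRP1, in induced 2 only, with 25 reads and a fold of 3.66. Next came a shared peak 12.8 kb beyond the 3′ end of KLF5. It had 51 reads (38.0 to 67.1) and a fold of 5.16 in induced 1, and 48 reads (35.4 to 63.6) and a fold of 6.12 in induced 2. Its read numbers were thus close to those of the OVOL1 and OVOL2 sites.

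**Figure D2:**
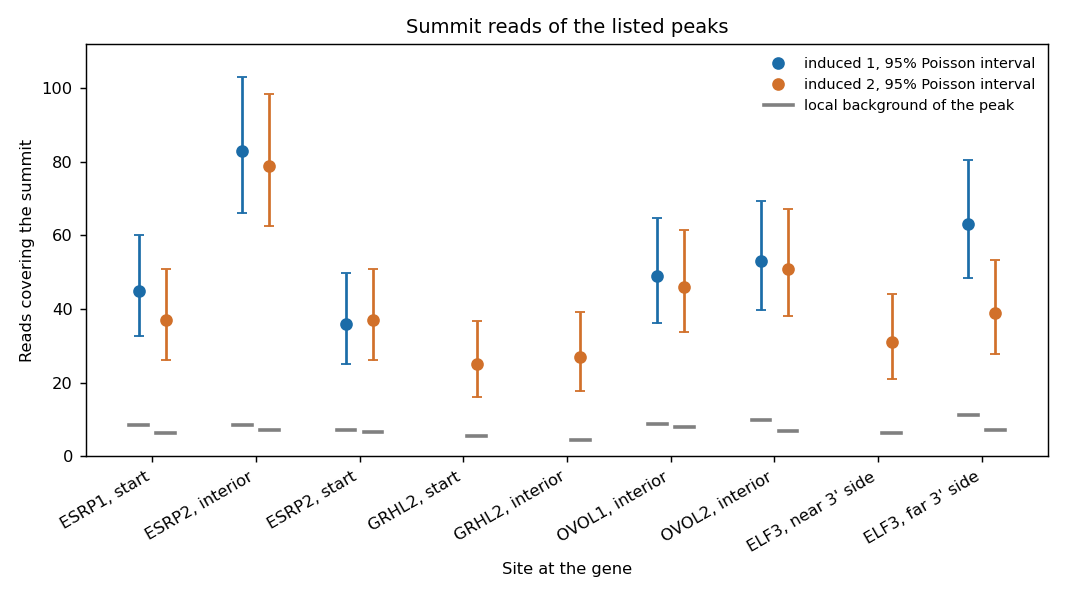
Extended reads covering the summit of each listed peak, by site, in induced 1 and induced 2, with 95% Poisson intervals and the local background of each peak as a grey line, also in reads. The interior ESRP2 site stands highest in both libraries (83 and 79 reads), the GRHL2 sites and the ELF3 site near the 3′ end are present in induced 2 only, and the ESRP2 start holds peaks that do not overlap.

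ESRP1, ESRP2 and GRHL2 had a peak within 1 kb of the 5′ end, ESRP1 and ESRP2 in both induced libraries and GRHL2 in induced 2. The share of all genes with a peak that close to the start was not computed, so this count does not set these genes apart. At ESRP2, GRHL2, OVOL1 and OVOL2 a peak lay further inside the gene. Whether these interior summits fall in exons or introns was not determined here, since no hg19 exon annotation was used.

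The 15 lines made 10 sites, of which 5 were shared by at least 1 bp, 1 was in induced 1 only and 4 were in induced 2 only. Of the induced 1 peaks at the genes, 5 of 6 (83.3%, exact 95% interval 35.9 to 99.6) were shared, against 80.3% of all peaks of that list. Of the induced 2 peaks, 5 of 9 (55.6%, 21.2 to 86.3) were shared, against 49.3% of all. These shares are near those of the whole lists. None of the 15 overlapped an uninduced peak, as was true of most of the lists, where 0.608% of induced 1 and 0.523% of induced 2 peaks did. On chromosomes 8, 13, 16 and 20 the uninduced lists had no peak, and on chromosomes 1 and 11 their nearest peak was 31478 kb or more from the start of any of these genes.

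In fold, 1 of the 6 peaks at the genes lay above the list median in induced 1, and 6 of the 9 did in induced 2. Median percentiles of the peaks at the genes were 38.7 in induced 1 and 53.6 in induced 2. Their median fold was 4.91 in induced 1, against 5.33 over that list, and 5.07 in induced 2, against 4.91. A fold of at least 5 was reached by 2 of 6 peaks in induced 1 and 6 of 9 in induced 2, where 59.1% and 48.3% of all peaks reached it. Only the interior ESRP2 site was at or above 5 in both libraries. The share of all shared peaks that reached 5 in both is not given here, so this does not set the sites at these genes apart. The ESRP1, OVOL1, OVOL2 and ELF3 sites each had a fold between 4.74 and 4.97 in 1 library and above 5 in the other, so this count turns on small differences.

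**Figure D3:**
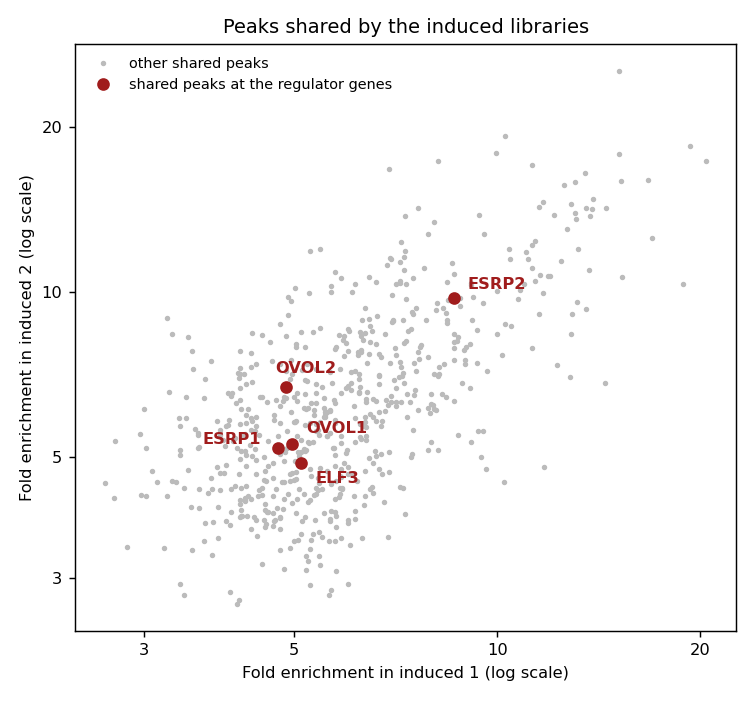
Fold enrichment in induced 1 against induced 2, both on log scales, for the peaks shared by the induced libraries, with the 5 at the regulator genes in red. ESRP2 lies in the upper part of the cloud at 8.61 and 9.72, and the other 4 lie near a fold of 5 in both libraries, with OVOL2 higher in induced 2 (6.68).

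Summit reads at the 5 shared sites were compared between the induced libraries with an exact two-sided binomial test against the overall ratio of 1.23, with Benjamini-Hochberg adjustment over all 661 shared peaks. No site passed: the adjusted p of the exact test was 1.00 at each of the 5. Over all shared peaks 0% passed the adjustment, and 2.87% had an unadjusted binomial p under 0.05. Only peaks listed in both libraries were tested, and the ratio of 1.23 came from the same peaks. A site that differed enough to be missing from either list was therefore not tested. The ratio of induced 1 to induced 2 reads was 1.22 (95% interval 0.770 to 1.93) at ESRP1 and 1.05 (0.763 to 1.45) at ESRP2. It was 1.07 (0.698 to 1.63) at OVOL1 and 1.04 (0.694 to 1.56) at OVOL2. ELF3 had the highest ratio, 1.62 (1.07 to 2.47), with an exact binomial p of 0.196 before adjustment. The overall ratio lies within each of these intervals, and differences smaller than they span were not detectable at this depth.

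The 8 windows cover 527 kb, or 0.0175% of the 3018 Mb between the chromosome starts and the furthest peaks. They held 11.4 and 17.1 peaks per Mb in induced 1 and induced 2, against 0.273 and 0.443 per Mb over the whole span. The span includes gene-poor and unmappable sequence, so these densities do not compare the 8 genes with other genes. The share of all genes with a peak within 10 kb was not computed here, since no hg19 gene annotation was used.

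Among the other shared peaks, those most like the interior ESRP2 site in their pair of fold percentiles were found on chromosomes 4, 1 and 20, within 0.851 percentile points. The nearest, on chromosome 4 at 129732293 to 129732707, had folds of 8.50 and 9.65 and 67 and 61 reads. The second, on chromosome 1 at 43751096 to 43751672, had folds of 8.46 and 9.65 and 64 and 61 reads. The third, on chromosome 20 at 62170106 to 62170522, had folds of 8.79 and 9.72 and 97 and 79 reads.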

How the data were processed

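Anti-HA ChIP-seq of 2 induced and 2 uninduced libraries was analysed from the authors' peak lists, 1 per library, grouped by title. MACS2 2.1.1.20160309, BWA 0.7.15, Trimmomatic 0.36 and build hg19 come from the submitters' processing notes. No source used here gives the peak threshold, the treatment of duplicates or the control libraries. The deposited lists give a fold enrichment (a ratio), −log10 p, −log10 q and a score per peak. The score, 10 times the −log10 q rounded down in the authors' lists, was not used.

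Reads at each summit were recovered as the whole number that yields the listed −log10 p, within 0.0005, as a Poisson tail, given the listed fold with a pseudocount of 1. Exactly 1 solution was found for every peak. In induced 1 the reads had been scaled down by 1.40, and they are given before this scaling. Recovery and binomial test were run on simulated data (Python 3.11.15, scipy 1.17.1), as a check of the code only. The simulated peaks were made with the same formula that the recovery inverts. For the binomial test, large differences were planted and the true ratio was supplied.

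An overlap of 1 bp or more made peaks shared. Gene bodies are those of the selection rule, and strands came from general knowledge of the genes or, for ELF3, EHF and KLF5, from RefSeq, whose table also named overlapping genes (8 of 8 symbols matched). The genes, lists and tests were chosen with earlier results of these data known. All 8 genes and every peak within 10 kb are named, with the 3 shared peaks nearest to the strongest site in fold percentiles. A count over other epithelial genes was planned but not run, for want of hg19 positions. Alternatives covered the window, the threshold, the overlap, each library left out, a replicate block and the expected read ratio.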

Additional observations from a re-analysis of the deposited data

How the results depend on the processing

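The difference in mean peak number at the 8 genes was 7.5, the genes with a shared site numbered 5 and the shared sites 5. With gene bodies alone these were 4.5, 3 and 3, because the ESRP1 and ELF3 sites and the GRHL2 start peak lie outside the bodies. At a fold of at least 5 they were 4, 1 and 1, and the 1 is the interior ESRP2 site. The matching share of all shared peaks is not given here. Windows of 5 kb gave 6.5, 4 and 4, and windows of 50 kb gave 10.5, 6 and 7. A −log10 q of at least 5 and stricter overlaps left the counts as they were. With summits within 1 kb, an alternative chosen after seeing the data, the shared sites were 6, since the ESRP2 start peaks then count as 1. The difference ranged from 6 to 9 when 1 library was left out, and the shared counts need both induced libraries. Under a replicate block the difference was 7.5 (sign-flip test, exact p = 0.5, its minimum for 2 pairs), and pairing could not be checked from peak lists. With the ratio of genome-wide backgrounds (1.45) as the expected read ratio, 0 of the 5 member sites passed the exact binomial test (lowest adjusted p 0.364), while 5 of the 661 shared peaks did, against 0 with the ratio of 1.23. Before adjustment, 87 of the 661 had a binomial p under 0.05 with the ratio of 1.45, against 19 with 1.23. ESRP2 was the 1 member site among the 87 (exact binomial p = 0.0455).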

Other observations

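Further from the genes, ELF3 and EHF had additional listed peaks within 100 kb. A shared peak lay 29.3 kb beyond the 3′ end of ELF3, with 45 reads (32.8 to 60.2) and a fold of 5.39 in induced 1, and 52 reads (38.8 to 68.2) and a fold of 7.23 in induced 2. In induced 2 this fold was higher than those of both ELF3 peaks within 10 kb. Induced 2 alone had a peak 90.3 kb beyond ELF3, with 32 reads and a fold of 4.01. At EHF, induced 2 alone had a peak 20.3 kb upstream of the 5′ end, with 34 reads (23.5 to 47.5) and a fold of 3.83. No uninduced library listed a peak within 100 kb of any of the 8 genes.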
